A study of Mus musculus with 47 samples.

Results

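The comparison described here was between brain libraries of female 3xTg mice with much and with little RNA of the choroid plexus. Its members were chosen by the level of 1 transcript, Ttr (ENSMUSG00000061808, GRCm38 chr18:20665280-20674321, plus strand), in each of the 23 female libraries, as log2 of CPM plus 1, where CPM is the count scaled to a common column total. The 8 libraries with the highest and the 8 with the lowest value were compared, so that 16 of 23 female libraries, of 37 libraries analysed in all, entered the comparison, and Ttr itself was left out of the results. All mice carried the 3xTg transgenes, mutant human forms of APP and tau beside a mutant presenilin 1, which model Alzheimer's disease. They were placed at 6 months of age on 1 of 4 amino acid-defined diets, Control, IleR (isoleucine reduced), LeuR (leucine reduced) or ValR (valine reduced), and brains were collected after 9 months, at 15 months of age. No wild-type brain was among the libraries. The labels name the tissue only as brain and the methods name the left hemisphere, and the RNA protocol in the labels names liver. The 10 genes of a liver list summed to between 0.859 and 12.6 CPM in the 16 libraries, with the highest sums in ValR 36 (12.6 CPM, of which Alb, the albumin gene, was 7.32) and ValR 32 (9.11 CPM) and at most 2.66 CPM in the other 14. Each library is called by its diet and the number in its label.

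The choroid plexus is the fringe of epithelium and vessels that hangs in the brain ventricles and makes most of the cerebrospinal fluid. Its epithelial cells pump ions and water from blood to ventricle, are sealed by tight junctions, and secrete carrier proteins and growth factors. Transthyretin, the product of Ttr, is their best known secreted protein and carries thyroxine and, with its binding protein, retinol. It also binds amyloid beta. Ttr is among the most abundant transcripts of this epithelium, so the amount of plexus left in a dissected piece of brain can set its level in RNA from the whole piece. In bulk RNA, fewer plexus cells and less RNA per plexus cell cannot be told apart.

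As an example of the DNA beside genes that moved together with Ttr, the sequences before the start sites of 3 choroid plexus genes are shown, from RefSeq on GRCm38.p6. Otx2 is a homeodomain factor needed for the choroid plexus, and factors of its family bind a core of TAATCC. The core was searched on both strands, where it reads GGATTA on the other, and matches are in capitals. Kcne2 (chr16:92292139-92292388, plus strand, 250 bases) had the largest fitted difference among the choroid plexus genes, over few counts in the libraries with the lowest Ttr. It held no match. Mfrp (chr9:44101520-44101728, plus strand, 209 bases) and Abca4 (chr3:122044210-122044442, plus strand, 233 bases) were the 2 genes with a match among the 17 choroid plexus list genes past the threshold that had an entry.
Kcne2: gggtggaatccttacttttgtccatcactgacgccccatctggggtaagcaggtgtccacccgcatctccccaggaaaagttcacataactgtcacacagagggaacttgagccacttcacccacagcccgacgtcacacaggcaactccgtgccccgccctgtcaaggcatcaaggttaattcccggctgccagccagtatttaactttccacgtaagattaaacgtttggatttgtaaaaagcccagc
Mfrp: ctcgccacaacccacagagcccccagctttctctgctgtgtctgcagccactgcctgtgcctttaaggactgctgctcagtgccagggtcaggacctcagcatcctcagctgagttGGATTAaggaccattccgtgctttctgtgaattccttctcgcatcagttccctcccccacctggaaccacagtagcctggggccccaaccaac
Abca4: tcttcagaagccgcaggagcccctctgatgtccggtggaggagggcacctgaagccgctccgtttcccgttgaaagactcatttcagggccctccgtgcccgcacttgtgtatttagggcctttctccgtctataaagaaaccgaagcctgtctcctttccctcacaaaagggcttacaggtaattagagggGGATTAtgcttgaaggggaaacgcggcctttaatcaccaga
Each printed stretch ends where the GENCODE gene begins. Over windows of 250 bases before the start, 37 of 42 choroid plexus list genes had an entry and 5 of those genes held the core, in 5 of their 50 windows (10%). Of all 32851 windows in the table, 6.25% held it. Of the 17 genes past the threshold that had an entry, 2 held the core. A match is a description of the letters and not a binding site.

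Ttr fell into a wide range that defined the groups. In the 8 highest libraries the level was 2419 CPM in ValR 32, 2277 in LeuR 45, 1629 in LeuR 44, 1600 in ValR 36, 622.8 in Control 28, 524.8 in LeuR 48, 483.3 in IleR 42 and 415.4 in IleR 38. In the 8 lowest it was 2.503 CPM in LeuR 46, 1.989 in Control 27, 1.658 in Control 29, 1.187 in IleR 39, 1.08 in LeuR 47, 0.7624 in ValR 34, 0.6615 in Control 26 and 0 in Control 25, where a count of 0 allows up to 0.164 CPM (3 counts). The 4 highest libraries stood above the next 4, and the lowest group had almost no transcript. The 7 libraries between ran from 388.7 CPM in ValR 33, just outside the upper group, to 3.558 CPM in ValR 31, just outside the lower one. Ordered by Ttr, the 23 libraries had their largest gap not at an edge of either group but between 48.5 and 3.56 CPM, 3.44 on the log2(CPM + 1) scale, with 14 libraries above it and 9 below. These values chose the groups, so Ttr is given as a description with no test.

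**Figure D1:**
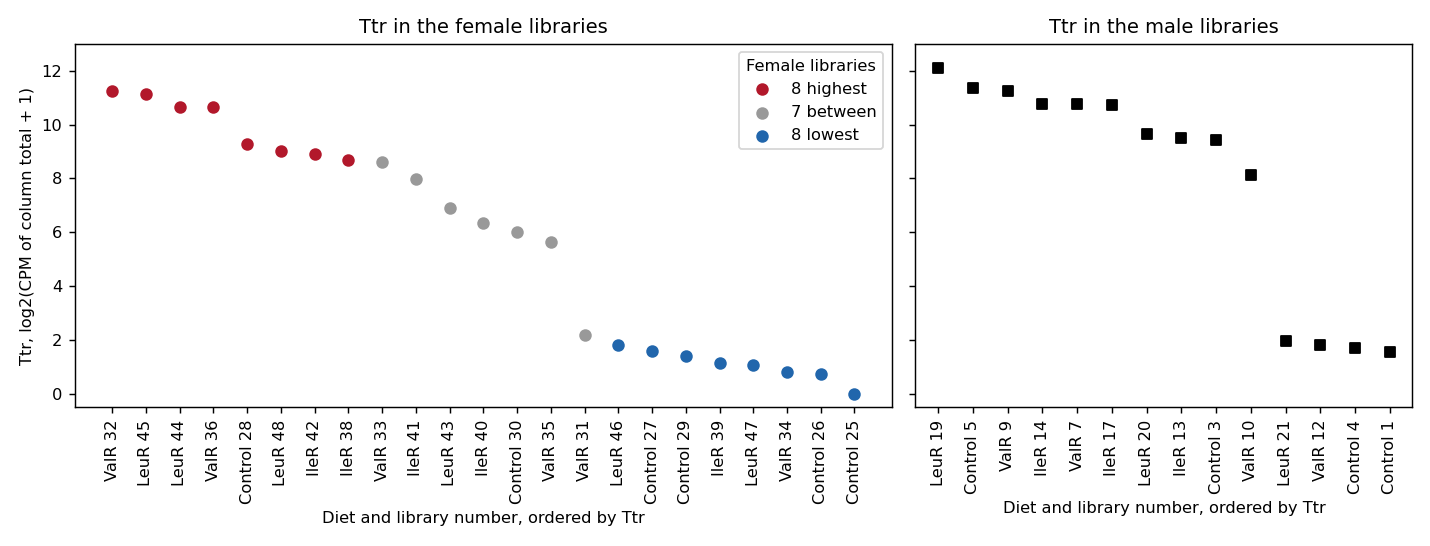
Level of Ttr, as log2(CPM of the column total + 1) on the vertical axis, in each female library (left, coloured by group) and each male library (right, not used by the rule), ordered from high to low. The 14 female libraries above the gap hold at least 48.5 CPM and the 9 below it at most 3.56 CPM, and 10 male libraries lie above the gap and 4 below.

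The groups were not alike in diet. The upper group held 1 Control, 2 IleR, 3 LeuR and 2 ValR libraries, and the lower group 4 Control, 1 IleR, 2 LeuR and 1 ValR. Total counts ran from 10672599 to 20669236 in the upper group and from 14320065 to 18268467 in the lower one, and their means differed by 257625 (two-sided exact permutation test, p = 0.843, n = 8 and 8). The share of hindbrain in the piece also varied. A composition score, the mean log2 CPM of cerebellar and brainstem genes minus that of cortical and hippocampal genes, ran from -6.36 to 4.41 in the upper group and from -4.89 to 0.60 in the lower one. It was above 0 in 3 upper libraries (ValR 36, LeuR 45 and LeuR 48) and in 1 lower library (Control 29), and its part in the results is given below as counts without these libraries.

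Of 20343 genes tested, 64 were higher and 6 were lower in the Ttr-high libraries (quasi-likelihood test of edgeR, adjusted by Benjamini-Hochberg, threshold 0.05), which is 0.315% and 0.0295% of the genes. Of the 64 higher genes, 22 were in the choroid plexus lists and 42 were not. With diet as a covariate, 31 of the 70 genes called in either direction were lost. Of the 42 genes of 4 choroid plexus lists, 41 passed the filter on low counts, and 22 of these were higher (53.7%), 0 were lower and 19 did not pass the test. The median log2 fold change of the 41 genes was 2.63, beside -0.00 over all genes tested. Other transcripts of the cells in which Ttr is made are what a choice by Ttr looks for, so these counts describe how far the other plexus genes went with Ttr and are not independent evidence of a difference. Summed over the 42 genes, the level ran from 777.5 to 2160.7 CPM (median 1362.2) in the upper group and from 380.0 to 589.9 CPM (median 486.3) in the lower one, without overlap. In the 12 libraries with a composition score below 0 (5 upper and 7 lower), a choice made after seeing the data, 39 genes were higher (0.192%) and 2 lower, and 19 choroid plexus list genes were among the higher ones.

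Genes of ion and water transport, the machinery of fluid secretion, had 9 of 14 tested genes higher and a median log2 fold change of 2.78. They held the largest fitted log2 fold change of the choroid plexus lists, 6.62 for Kcne2. Its Ttr-low group had at most 2 counts a library, so the rank rests on the fit. Kcne2, a potassium channel subunit of the epithelium, was at 2.56 CPM at the lowest, 7.18 at the median and 15.5 at the highest in the Ttr-high libraries, and at 0, 0.0888 and 0.141 CPM in the Ttr-low libraries. No Ttr-low library held more than 2 counts of it, so the level was at least 40.8-fold higher (adjusted p = 4.98e-05), taking 3 counts per library as the limit. Slc4a5, a sodium bicarbonate cotransporter, was at 2.8, 11.5 and 22.5 CPM against 0, 0.199 and 0.546 CPM, and the groups did not overlap. Its log2 fold change was 5.70 ± 0.60 (SE, n = 8 and 8, adjusted p = 0.000116). Aqp1, the water channel of the ventricular face of the epithelium, was at 2.59, 5.63 and 14.1 CPM against 0.205, 0.412 and 1.25 CPM, again without overlap, a log2 fold change of 3.75 ± 0.48 (adjusted p = 0.00088). Kcnj13, an inwardly rectifying potassium channel, ran from 3.22 to 17.5 CPM against 0.171 to 1.63 CPM (log2 fold change 3.23 ± 0.48, adjusted p = 0.0039), and its exons overlap those of Gigyf2 on the other strand. Trpv4, a cation channel that opens with osmotic change, ran from 2.41 to 15.7 CPM against 0.735 to 2.04 CPM (2.63 ± 0.45, adjusted p = 0.011). The lactate transporter Slc16a8, the metalloreductase Steap1, the lipid transporter Abca4 and the chloride channel protein Clic6 were the others that rose, with log2 fold changes of 5.05, 4.69, 1.85 and 2.93. For Clic6 the groups touched, since Ttr-low Control 25 at 11.1 CPM lay above the lowest Ttr-high library at 10.1 CPM. The other 5 genes did not pass the test. Calls in this list depended on the fit in places: those of Slc4a5, Kcnj13, Trpv4, Abca4 and Clic6 were lost with limma voom, and those of Trpv4, Abca4 and Clic6 in the libraries with a composition score below 0. Car14, a carbonic anhydrase, had a median of 14.3 against 7.73 CPM (log2 fold change 0.84, adjusted p = 0.13), and Slc13a4, a sulphate transporter, of 20.6 against 17.5 CPM (0.38, adjusted p = 0.59).

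The list of secreted proteins, receptors and enzymes had 7 of 13 tested genes higher. Folr1, the folate receptor that carries folate into the cerebrospinal fluid, had the smallest adjusted p of all genes tested. It was at 3.74, 6.85 and 12.7 CPM in the Ttr-high libraries against 0, 0.0719 and 0.273 CPM, so that every Ttr-high library exceeded every Ttr-low one, with a log2 fold change of 6.06 ± 0.44 (adjusted p = 2.84e-06). Mfrp, a membrane protein with a frizzled-like domain, was at 5.38, 17.6 and 31.7 CPM against 0, 0.234 and 0.492 CPM (6.09 ± 0.52, adjusted p = 1.3e-05), and it shares exons on its own strand with C1qtnf5, so that reads could be split between both genes. Kl, the anti-ageing membrane protein klotho, was abundant enough to be counted in all libraries. It was at 21.4, 53.7 and 90.7 CPM against 2.57, 5.18 and 8.43 CPM, 10.3-fold by the means (log2 fold change 3.36 ± 0.36, adjusted p = 0.00013). F5, coagulation factor V, ran from 6.66 to 32.3 CPM against 0.211 to 1.02 CPM (4.68 ± 0.44, adjusted p = 3e-05). Sostdc1, a secreted antagonist of BMP and Wnt signals, ran from 3.98 to 23.6 CPM against 0.147 to 1.34 CPM (4.29 ± 0.55, adjusted p = 0.0009). Lbp, which binds bacterial lipopolysaccharide, ran from 4.36 to 23.0 CPM against 0.221 to 2.6 CPM (3.00 ± 0.49, adjusted p = 0.007), a call lost with limma voom. Enpp2, the lysophospholipase autotaxin, which oligodendrocytes make as well, was the highest of the list per kilobase of transcript. It ran from 376.9 to 1128.3 CPM against 165.3 to 269.2 CPM, 3.50-fold by the means (log2 fold change 1.81 ± 0.24, adjusted p = 0.0011). Igf2 and Igfbp2, a growth factor and one of its binding proteins, which the meninges express too, had log2 fold changes of 0.57 and 0.69 (adjusted p = 0.39 and 0.2), and their groups overlapped.

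The list of junctions, keratins and matrix had 6 of 11 tested genes higher. It also held genes of other kinds, and of these Tmem72, Calml4 and Cox8b were among the higher ones. Tmem72, a transmembrane protein, was at 8.4, 25.6 and 50.2 CPM in the Ttr-high libraries against 0.124, 0.465 and 0.805 CPM, with a log2 fold change of 5.83 ± 0.50 (adjusted p = 1.3e-05). Cldn2, the claudin of leaky tight junctions, was at 3.38, 6.41 and 12.0 CPM against 0, 0.343 and 0.748 CPM (4.42 ± 0.49, adjusted p = 0.00016). Both groups of libraries stood apart for each of these genes. The partner keratins of simple epithelia, Krt8 and Krt18, held at most 3 counts in any Ttr-low library and were at least 8.17-fold and at least 14.0-fold higher in the Ttr-high libraries (adjusted p = 0.0011 and 0.00039). Cldn1 and Cldn3, other claudins, had log2 fold changes of 0.72 and 1.29 and did not pass the test (adjusted p = 0.355 and 0.329).

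The 3 transcription factors of the choroid plexus lists did not pass the test. With Ttr taken as a number over all 23 libraries, 2 of them rose, in a fit in which 1.84% of all genes did. DESeq2 called 2 of them (394 of all genes). Limma voom and the fit with the composition score as a covariate called 0. Otx2 was at 2.73, 9.12 and 17.4 CPM in the Ttr-high libraries and at 0.0622, 3.79 and 11.6 CPM in the Ttr-low ones. The groups overlapped widely, because Control 27 with 1.989 CPM of Ttr held 11.6 CPM of Otx2 and ValR 34 held 7.87 CPM, while Control 26 held 0.0622 CPM. The log2 fold change was 1.11 ± 0.71 (adjusted p = 0.44), and in the 12 libraries with a composition score below 0 the adjusted p was 0.93. Otx2 is also made in cells of the thalamus and midbrain. Msx1, at 3.34 to 11.6 CPM against 0.978 to 4.64 CPM, had a log2 fold change of 1.29 ± 0.34 (adjusted p = 0.12), and Lmx1a one of 2.69 ± 0.77 (adjusted p = 0.15).

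**Figure D2:**
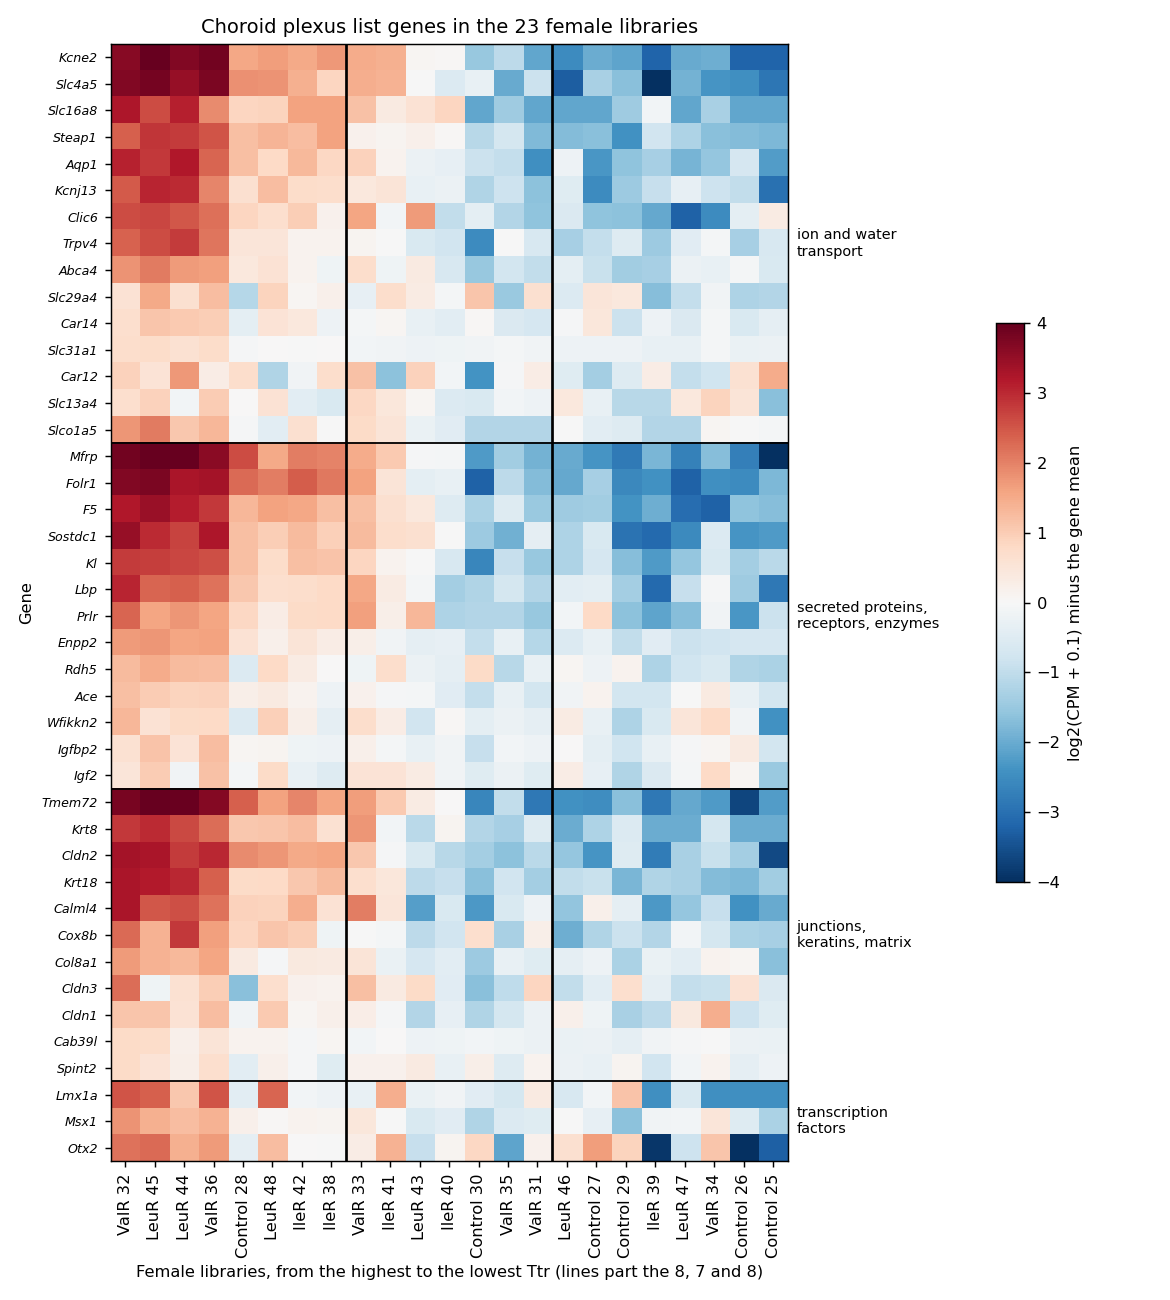
Level of each choroid plexus list gene (rows, grouped by role) in the 23 female libraries (columns, from the highest to the lowest Ttr), as log2(CPM + 0.1) minus the gene's mean over the libraries. The 22 genes past the threshold are all highest in ValR 32, LeuR 45, LeuR 44 and ValR 36, and genes such as Slc13a4, Igf2 and Spint2 show little order.

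Kcne2 ran from 11.4 to 15.5 CPM in the 4 libraries with the highest Ttr and from 2.56 to 2.99 CPM in the next 4. Kl ran from 77.5 to 90.7 CPM and from 21.4 to 29.9 CPM, and Aqp1 from 7.56 to 14.1 CPM and from 2.59 to 3.69 CPM. Of the 42 choroid plexus list genes, 34 lay higher in each of these first 4 libraries than in any of the next 4, beside 2.5% of all genes tested. The split was made on Ttr, so this count is a description and nothing is read from it. In the 7 libraries that the rule left out, the lowest levels of Kcne2 and Kl lay within or below the range of the lower group and the highest lay close to the lowest of the upper group. Kcne2 ran from 0.119 to 2.51 CPM there (median 0.856) and Kl from 2.02 to 23.4 CPM (median 8.23), and the highest of them for Kl, ValR 33, lay above the Ttr-high library LeuR 48 at 21.4 CPM.

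**Figure D3:**
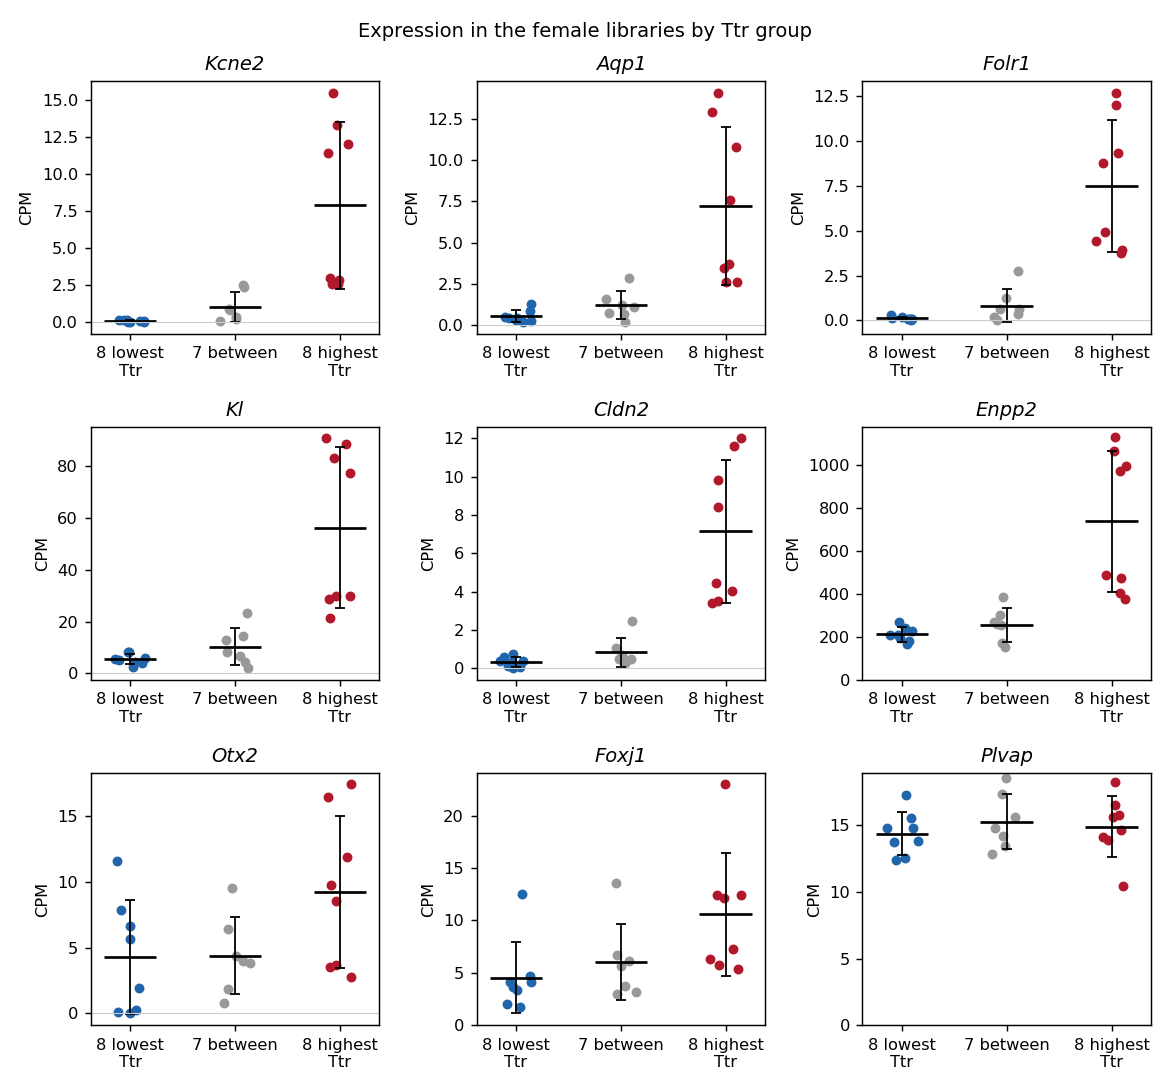
CPM of 9 genes (vertical axes from 0) in the 8 lowest, 7 intermediate and 8 highest female libraries by Ttr. Points are libraries, bars are means and whiskers are SD. Kcne2, Aqp1, Folr1, Kl, Cldn2 and Enpp2 do not overlap between the 8 lowest and 8 highest libraries, Otx2 and Foxj1 do, and Plvap lies between 10.4 and 18.2 CPM in both groups.

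Genes outside the choroid plexus lists made up 42 of the 64 that rose. Those with the largest change among well expressed genes without overlap were Drc7, C3, Col9a3, Slc2a12 and Rell1. Drc7, a part of the dynein regulatory complex of motile cilia, was at 3.4, 6.85 and 16.5 CPM against 0.249, 0.516 and 1.16 CPM (log2 fold change 3.54 ± 0.41, adjusted p = 0.00027). C3, the central complement protein, was at 2.79, 7.3 and 15.2 CPM against 0.131, 0.99 and 2.32 CPM (3.00 ± 0.46, adjusted p = 0.0044). Col9a3, a collagen chain, ran from 14.1 to 39.7 CPM against 6.18 to 10.5 CPM (1.59 ± 0.22, adjusted p = 0.0019). Slc2a12, a glucose transporter, ran from 6.66 to 16.7 CPM against 3.37 to 6.5 CPM (1.10 ± 0.20, adjusted p = 0.02), and Rell1 from 16.4 to 24.4 CPM against 10.2 to 15.6 CPM (0.55 ± 0.11, adjusted p = 0.041). The calls of C3, Slc2a12 and Rell1 were lost with limma voom and in the libraries with a composition score below 0. Named after their values were seen, 2 chains of type IV collagen rose, Col4a3 by 1.87 and Col4a4 by 1.71 on the log2 scale, and so did Slc4a2, an anion exchanger, by 0.84, and Oca2, a melanosomal transporter, by 3.66. In all, 41 genes (0.202%) were higher in every Ttr-high library than in every Ttr-low one and 8 (0.0393%) were lower, and 20 of the 41 were choroid plexus list genes.

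The 6 genes that were lower were Acp7, Cdh4, Tcerg1l, Trp53i11, Pid1 and Marcks. Among the well expressed ones without overlap, Tcerg1l was at 4.45, 7.69 and 8.78 CPM in the Ttr-high libraries against 8.83, 11.4 and 14.6 CPM (log2 fold change -0.72 ± 0.15, adjusted p = 0.049). Trp53i11 was at 51.6, 60.1 and 66.5 CPM against 66.7, 80.8 and 103.2 CPM (-0.43 ± 0.09, adjusted p = 0.049). Pid1, an adaptor that dampens insulin signalling in fat cells, was at 26.6, 31.4 and 32.8 CPM against 33.7, 40.0 and 44.3 CPM (-0.38 ± 0.07, adjusted p = 0.017). For Tcerg1l and Trp53i11 the 2 groups are parted by a gap that is small beside the spread within them, and both lost the call with diet as a covariate, as Pid1 did. In the libraries with a composition score below 0, none of these 3 passed.

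Genes of motile cilia and of other structures of the ventricle and its surroundings were set beside the plexus. The cells that made the ciliary transcripts cannot be told from bulk RNA. Of 17 genes of motile cilia and ependyma, the ciliated lining of the ventricles, 0 passed the test, although 16 had a log2 fold change above 0 and the median was 1.23. Foxj1, the master regulator of motile cilia, was at 5.38, 9.72 and 23.0 CPM in the Ttr-high libraries against 1.8, 3.89 and 12.5 CPM (log2 fold change 1.22 ± 0.39, adjusted p = 0.18), and Rsph1, of the radial spokes, was at 2.18, 3.51 and 11.1 CPM against 1.44, 1.91 and 2.86 CPM (1.15 ± 0.31, adjusted p = 0.13). The ciliary list summed to between 38.8 and 152.5 CPM in the upper group and between 21.7 and 62.2 CPM in the lower one. With Ttr taken as a number over all 23 libraries, 7 of its genes rose, in a fit in which 374 of all 20343 genes did (1.84%). Outside this list, and named after their values were seen, Drc7 and 2 other genes of motile cilia rose, Gmnc by 1.78 ± 0.29 (adjusted p = 0.00778) and Spag16 by 2.60 ± 0.47 (adjusted p = 0.0181), the last not with diet as a covariate or with limma voom. Of 15 genes of meningeal and stromal fibroblasts, 0 passed and 12 had a log2 fold change below 0 (median -0.18). Plvap, of the fenestrated capillaries that the plexus has, was at 10.4, 15.1 and 18.2 CPM against 12.4, 14.3 and 17.2 CPM (0.05 ± 0.10, adjusted p = 0.81). The lists of blood-brain barrier endothelium (12 genes), pericytes (6) and border macrophages (8) had 0 genes past the test and medians of 0.04, 0.09 and -0.42.

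Transthyretin carries thyroxine and retinol, and 0 of 10 genes that handle these cargoes passed the test, with a median of -0.12. Dio2, which activates thyroxine, was at 30.6, 42.6 and 116.5 CPM in the Ttr-high libraries against 39.8, 65.1 and 86.5 CPM (log2 fold change -0.19 ± 0.26, adjusted p = 0.73). Thra, the main thyroid hormone receptor of the brain, was at 327.2, 538.9 and 679.0 CPM against 528.2, 666.6 and 855.2 CPM (-0.36 ± 0.14, adjusted p = 0.26). Rbp4, the retinol carrier, had a log2 fold change of -0.32 (adjusted p = 0.433). Lrp2, the megalin receptor that takes up such carriers, had one of 1.81 ± 0.46 (adjusted p = 0.11).

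Of the lists for cell types and regions of the brain tissue itself, 3 genes passed the test, 2 thalamic and 1 of cortex and hippocampus. Neurons, astrocytes and microglia, with 8 genes each, had 0 genes past the test and medians of -0.06, 0.21 and -0.23. All 8 oligodendrocyte genes had a log2 fold change above 0 and 0 passed (median 0.72). Mbp, a protein of myelin, was at 2581.2, 3880.9 and 5890.7 CPM against 1534.2, 2289.0 and 3546.5 CPM (0.75 ± 0.18, adjusted p = 0.098), and with Ttr as a number over 23 libraries, where 1.84% of all genes rose, 7 of the 8 did. Of 7 thalamic genes 2 rose. Prkcd, a protein kinase of thalamic relay neurons, was at 17.0, 82.0 and 216.7 CPM against 9.78, 13.7 and 39.6 CPM (2.42 ± 0.48, adjusted p = 0.036), with the highest values in IleR 42 and IleR 38 at 216.7 and 214.6 CPM, and Plekhg1 rose by 1.49 ± 0.31 (adjusted p = 0.0494). Prox1, of dentate granule cells, rose by 1.23 ± 0.23 (adjusted p = 0.023). These 3 calls were lost with diet as a covariate, and Prkcd was called in 6, Plekhg1 in 4 and Prox1 in 9 of the 16 fits that each left out 1 library. The thalamic genes called were 3 with the composition score as a covariate, 4 with DESeq2 (394 of all genes) and 0 with limma voom. In the 12 libraries with a composition score below 0 they were 4, and the median of the list was 1.78 in place of 1.26. The cortex and hippocampus list, which holds Prox1, had 1 gene called with limma voom and 0 in those 12 libraries. All 8 cerebellar genes had a log2 fold change above 0 (median 2.58), yet 0 passed, and in the 12 libraries with a composition score below 0 their median was -0.36. The 5 blood genes had a median of -0.42, with none past the test. With the composition score as a covariate, 27 choroid plexus genes were higher, beside 0.85% of all genes, and 19 were in the 12 libraries with a score below 0, beside 0.192%. The part of the other lists in the plexus result was not tested.

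**Figure D4:**
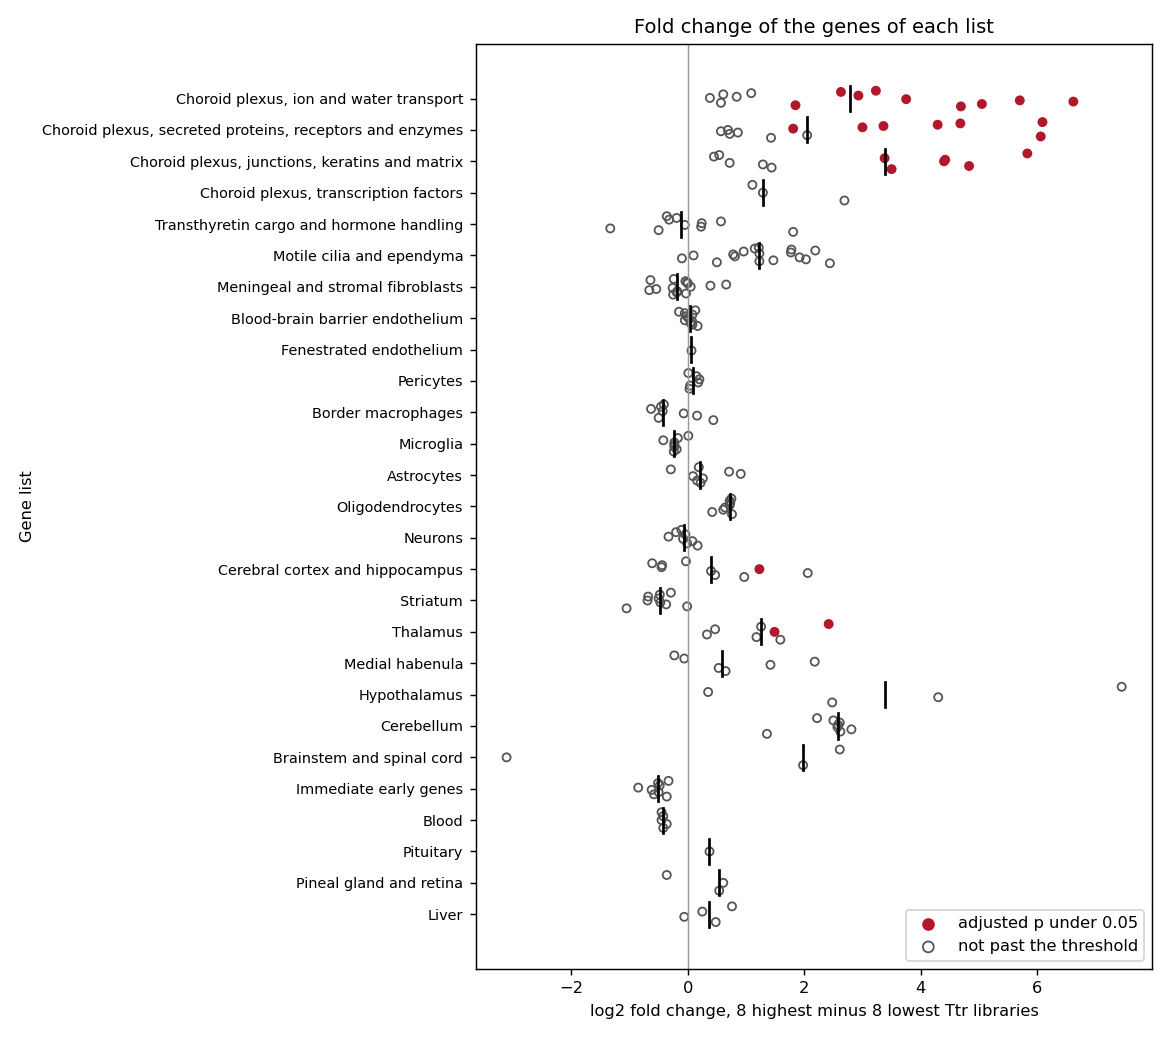
Log2 fold change of the Ttr-high over the Ttr-low libraries (horizontal axis) for each tested gene of the 27 lists (rows), with filled points past an adjusted p of 0.05, open points not, and a black bar at each list's median. The filled points lie in 3 of the 4 choroid plexus lists, where 22 genes were higher, with 3 more in the cortical and thalamic lists.

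The male libraries took no part in the choice and gave a separate look at the same genes. Of 24 labelled, 14 had counts and were analysed here, and the other 10 had no column of counts. The methods say that outliers were taken out after a principal component analysis, and whether that holds for any of the 10 is not known. Their Ttr was also spread over 3 orders of size, from 1.94 CPM in Control 1 to 4417 CPM in LeuR 19, with 10 libraries above 10 CPM and 4 below. Ttr was fitted as a number beside diet, so that a slope is the log2 change of a gene per unit of log2(CPM + 1) of Ttr. Genes were again set against Ttr, so the counts describe how far they went with it. They are not independent evidence of a difference. Of 22196 genes tested, 42 rose (0.189%) and 6 fell (0.027%) with Ttr (edgeR's quasi-likelihood test). Of the 42 choroid plexus list genes, all tested, 20 rose (47.6%), 0 fell and 42 had a slope above 0, beside 47.5% of all genes. By list these were 8 of 15 for transport, 6 of 13 for secreted proteins, receptors and enzymes, 5 of 11 for junctions, keratins and matrix, and 1 of 3 for transcription factors. In the same fit the brainstem and spinal cord list had 9 of 9 slopes above 0, 1 past the test (Hoxb3, adjusted p = 0.048) and a median slope of 0.38, beside 0.26 for the choroid plexus genes. The oligodendrocyte list had 8 of 8 and the blood list 5 of 5 above 0, with none past the test. LeuR 19, highest in Ttr, was also highest of the 14 in the summed levels of these 3 lists, at 583.8, 18265.3 and 19626.4 CPM. Without LeuR 19, 14 choroid plexus genes rose, and 15 did with the composition score beside diet. The part of the oligodendrocyte and blood lists was not tested.

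Kcne2 was at 2.12, 10.4 and 37.6 CPM (lowest, median, highest) in the 10 male libraries above 10 CPM of Ttr and between 0.0636 and 0.169 CPM in the other 4, with a slope of 0.74 ± 0.03 (adjusted p = 8.73e-08). Tmem72 was at 7.19, 39.0 and 117.0 CPM against at most 0.764 CPM, with a slope of 0.74 ± 0.03 (adjusted p = 8.73e-08). Both genes parted the 10 and the 4 libraries without overlap, as did 14 of the 22 choroid plexus genes that were higher in females, beside 0.225% of all genes. These libraries were split by Ttr, so the count is a description only. Kl was at 13.7, 67.7 and 183.5 CPM against 2.36 to 7.7 CPM (slope 0.45 ± 0.04, adjusted p = 0.00013). Slc4a5 was at 3.48, 19.4 and 55.5 CPM against 0 to 1.85 CPM (0.63 ± 0.07, adjusted p = 0.000865). Sostdc1 rose as well (0.39 ± 0.05, adjusted p = 0.00501), but its lowest library of the 10, at 1.89 CPM, lay under the highest of the 4, at 2.77 CPM. Msx1, which did not pass in females, rose in males (0.22, adjusted p = 0.037), and Lbp and Clic6, which rose in females, had slopes of 0.27 in males that did not pass (adjusted p = 0.17 and 0.093). The difference between the sexes was tested in 1 fit of all 37 libraries, chosen after seeing the data, and 0 of 22464 genes passed (edgeR, smallest adjusted p 0.137, with 1940 at an unadjusted p under 0.05).

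Of the 64 genes higher in Ttr-high females, 62 had a slope above 0 in males. The genes past the threshold in both sexes numbered 27, which is 42.2% of the female calls and 84.4% of the 32 male calls that were also tested in females. Ttr ordered the libraries of both sexes, so this overlap describes genes that went with it. Of these 27, 19 were choroid plexus list genes and 8 were in no such list, among them Col9a3, Oca2, Wdr72, Wdr86, Rbm47 and Tmprss11a. Of the other genes named above, Drc7 and C3 did not pass in males (slopes 0.31 and 0.13, adjusted p = 0.074 and 0.59), and Prkcd, Plekhg1 and Prox1 had slopes of 0.06, 0.04 and 0.01 (adjusted p = 0.7, 0.658 and 0.948). The genes that were lower in Ttr-high females had male slopes between -0.13 and 0.01 and none passed.

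**Figure D5:**
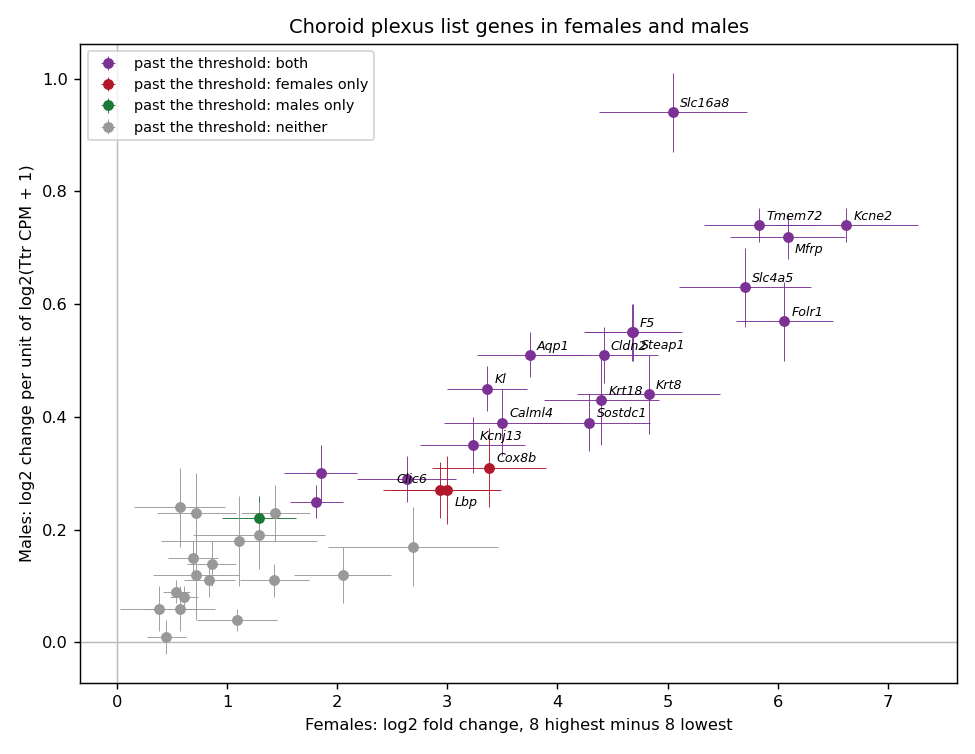
Log2 fold change of the Ttr-high over the Ttr-low females (horizontal axis, whiskers SE) against the slope on Ttr in males (vertical axis, whiskers SE) for the 41 choroid plexus list genes tested in both. All 41 lie above 0 on both axes, and 19 passed the threshold in both sexes.

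Because the groups differed in diet, Ttr is also given by diet over the 23 females. It ran from 0 to 623 CPM in Control (median 1.82, n = 6), from 1.19 to 483 CPM in IleR (median 254, n = 5), from 1.08 to 2277 CPM in LeuR (median 322, n = 6) and from 0.762 to 2419 CPM in ValR (median 219, n = 6). The diets overlapped, and each held at least 1 library with almost none. On the log2(CPM + 1) scale the means were 3.17 ± 3.66 in Control, 6.62 ± 3.23 in IleR, 6.77 ± 4.4 in LeuR and 6.52 ± 4.38 in ValR (SD). Diet was tested on the other genes. None of the choroid plexus genes passed in any diet (edgeR, smallest adjusted p over all genes 0.14 in IleR, 0.968 in LeuR and 0.95 in ValR), where 0% of 20344 genes passed in each. At an unadjusted p under 0.05 there were 577 genes in IleR, 819 in LeuR and 777 in ValR, limma voom called 1, 0 and 0 genes and DESeq2 called 8, 1 and 0. The median log2 fold change of the choroid plexus list genes was 0.50 in IleR, 1.66 in LeuR and 1.51 in ValR, beside -0.01, 0.00 and -0.01 over all genes.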

How the data were processed

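RNA was sequenced from brains of 3xTg mice, and the authors deposited expected counts per Ensembl gene and library, without normalization, from reads aligned to GRCm38.p5. The aligner is not given in the sources used here. The labels and methods describe polyA and total RNA selection differently. The authors also deposited tables of their own diet comparisons, with log2 fold changes and p-values, which were not used. Gene names and coordinates came from GENCODE M21, and 52083 of 55416 identifiers had a symbol. Expected counts were rounded. A gene was kept for a sex if some diet had 1 or more counts of it in all its libraries. TMM factors were computed over all libraries of a sex, and tests were run with edgeR 4.0.16 in R 4.3.3 (quasi-likelihood, Benjamini-Hochberg, 0.05), with limma 3.58.1 and DESeq2 1.42.0 as alternatives, and tested on simulated data. The SE is the log2 fold change over the square root of F. CPM values of genes other than Ttr are after TMM, and log2 CPM used a prior count of 2. Levels with at most 3 counts in every library of a group were treated as limits, which cover counting error only. Total counts ran from 10672599 to 21370973 in females and from 12682687 to 25722333 in males. The study counts its female transcriptomes in animals per group, while the labels do not tie a library to an animal. A planned test of Ttr between diets is not reported, since Ttr chose the groups.

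The members, gene lists and tests were chosen with earlier results of these data known. The genes named were Ttr, the 15 largest rises and 10 largest falls among called genes whose mean log2 CPM was 1 or more and whose groups did not overlap (14 and 3 qualified), the 8 largest of each direction in no choroid plexus list, and the 2 genes of each list with the highest CPM per kilobase (5 for choroid plexus lists). Unnamed gene models were counted only. Further genes of the lists and others were named after their values were seen.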

Additional observations from a re-analysis of the deposited data

Results flagged for a closer look

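In the Ttr-low group of 8 libraries, the composition score of Control 29 was 0.598, apart from the other 7, which lay between -4.89 and -3.02. This was the only one of 44 groups of values that stood out by Dixon's test at the 95% level, which flags about 1 in 20 groups by chance. Without the 4 libraries with a score above 0, Control 29 among them, 19 choroid plexus list genes were higher in the Ttr-high libraries, beside 22 with them.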

How the results depend on the processing

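No paired analysis was possible because no 2 libraries share a label number. The choroid plexus list counts (22 in females, 20 in males) stayed within 1.5 times under every alternative run. The count of all higher genes (64) was 394 with DESeq2, 374 with Ttr as a number in 23 libraries, 173 with the composition score as a covariate, 39 with diet as a covariate, 33 with limma voom and 39 in libraries with a composition score below 0. The count of lower genes (6) was 77, 35, 62, 2, 2 and 2 under the same alternatives. Leaving out 1 library gave 43 to 238 higher and 3 to 34 lower genes, with 225 and 23 without Control 27 and 238 and 34 without Control 28. In males, the 42 rising and 6 falling genes became 24 and 1 with diet and the composition score, 2 falling with limma voom and 1 falling with no diet in the model. Leaving out 1 male library gave 21 to 84 rising and 0 to 10 falling genes: 84 rising without Control 4, 21 without Control 5, 23 without LeuR 19, and 0 falling without LeuR 21. The cause was not tested. None of the 3034 values of single genes under alternatives turned direction past the threshold. Of the 70 genes called, 17 were called under all 9 alternatives that kept the 16 libraries or added to them and 44 in all 16 fits without 1 library. Of the genes named by the rule, Tcerg1l, Trp53i11 and Rell1 were called in 4 of these 16 fits each. RLE scaling and library totals without Ttr lost 0 of the 70. A mean CPM of at least 1 left 12 of the 70 untested, lost 0 of the others, and gave 55 higher and 7 lower genes with 19 of the choroid plexus lists. The difference of total count stayed on its side of the threshold without Ttr. Genes far below 1 CPM rest on a few counts a library.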

Other observations

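Hypothalamic peptide genes were high in a few libraries. Pmch, the precursor of melanin-concentrating hormone, was at 112.9 CPM in IleR 42 and 106.0 CPM in ValR 32, and at most 1.54 CPM in the other 6 Ttr-high libraries and 0.4 CPM in the Ttr-low ones (log2 fold change 7.45 ± 1.80, adjusted p = 0.0955). In the libraries between the groups, Pmch was at most 0.611 CPM, but Oxt was at 39.6 CPM in LeuR 43 and 37.3 CPM in ValR 33 and Avp at 93.1 and 3.94 CPM. In males Pmch was at 325.4 CPM in LeuR 21, 1 of the 4 male libraries with little Ttr, and at most 2.05 CPM in the other 13 libraries. Pmch, Hcrt, Oxt and Avp fell with Ttr in males (slopes -1.03, -0.90, -1.03 and -0.91, adjusted p from 0.00171 to 0.0352), and without LeuR 21 the count of falling genes was 0. The slopes of females and males did not pass the test of their difference (adjusted p = 0.137 for Pmch and Hcrt).

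Immediate early genes, which neurons switch on with activity, had 8 of 8 log2 fold changes below 0 in the Ttr-high females and 0 past the test (median -0.50). The median was -0.09 in the libraries with a composition score below 0, and in males 8 of 8 slopes on Ttr were above 0 with 0 past the test. Arc was at 13.0, 94.8 and 249.3 CPM against 86.0, 117.1 and 238.5 CPM (adjusted p = 0.59). The striatal list had 9 of 9 below 0 and 0 past the test (median -0.48), with Penk at 36.8, 49.9 and 227.5 CPM against 29.4, 71.3 and 450.4 CPM (adjusted p = 0.71). The medial habenula list had 0 of 6 genes past the test (median 0.59), and the pituitary, pineal and retina, and liver lists had 0 of 1, 3 and 4 tested genes.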
